A study of Cricetulus griseus with 4 samples.

Results

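Unstable mixture 1 was compared with unstable mixture 2 on 4 two-channel arrays, 2 for each mixture, which are all 4 samples of the series. Mixture 1 was equal amounts of RNA from the clones LS12 and 10-107-9, and mixture 2 equal amounts from Fe10-3 and 10-56-11. The labels call these 4 clones chromosomally unstable and give no agent, dose or age for them. Each array paired a mixture with total RNA of RT210B, a chromosomally stable clone of the same genetic background and of the same species, Chinese hamster (Cricetulus griseus). The genes described are the 350 probes, of 1152 on the array, that GEO's annotation pairs with a single human gene symbol. The rule reads the annotation and no measured value, though it was set with earlier results of these data known. The probes stand for 347 genes, of which 305 have a Chinese hamster RefSeq gene of the same symbol. FOXD1, ZNF135 and CYP51A1, described below, have no such match, and roles are given throughout for the human gene of that symbol.

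Chromosomal instability is the state in which a clone keeps acquiring new chromosome rearrangements over many cell generations after the event that started it. Clones of 1 origin can reach that state separately, so 2 sets of unstable clones need not express the same genes. As background that the labels do not give, clones so named are known to come from a hamster ovary hybrid line that carries a human chromosome 4. A mixture of 2 clones gives their average, and a gene that differs in 1 clone of a pair cannot be told apart from a smaller difference in both. Separate cultures for the replicates are not mentioned, so a p-value here measures the spread between arrays, which may be technical. The labels name no tissue or cell type to be checked, and ratios do not show whether a marker is expressed.

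A deposited value is the log2 ratio between the channels of an array. Each value was averaged over a probe's 2 spots and centred on the array's median probe. It was then divided by the array's median absolute value, which is the typical distance of a probe from the middle. The result is called a scaled ratio: a value of 2 lies 2 typical distances from the array's middle probe. RT210B was on every array and drops out of the unscaled log2 difference between mixtures, as far as its RNA was the same each time. The labels do not say that it was. On scaled ratios RT210B does not drop out fully, because each array is divided by its own median absolute value. The numerator of the ratio is not settled, because titles and descriptions order the pools differently and no dyes are given. A positive difference therefore says that a ratio was higher in mixture 1 than in mixture 2 as deposited. It does not say in which mixture there was more RNA.

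The arrays differed first in the width of their ratios, both between the mixtures and within mixture 2, and this was not tested. In mixture 1 the median absolute value was 0.877 for replicate 1 and 0.817 for replicate 2 (log2). In mixture 2 it was 0.563 and 0.342, so that 1 scaled unit is less log2 in mixture 2. All 4 arrays had 2304 spots with no value missing. Duplicate spots correlated at r = 0.725 to 0.819 across probes, which are not independent replicates, and differed by a median of 0.350 to 0.582 scaled units, with both of these extremes in mixture 2. Scaling evened out the middle of the distributions but not their tails. Below -3 scaled units lay 17 and 3 probes on the mixture 1 arrays and 39 and 40 on the mixture 2 arrays. Above 3 lay 4 and 7 probes in mixture 1 and 0 and 0 in mixture 2.

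**Figure D1:**
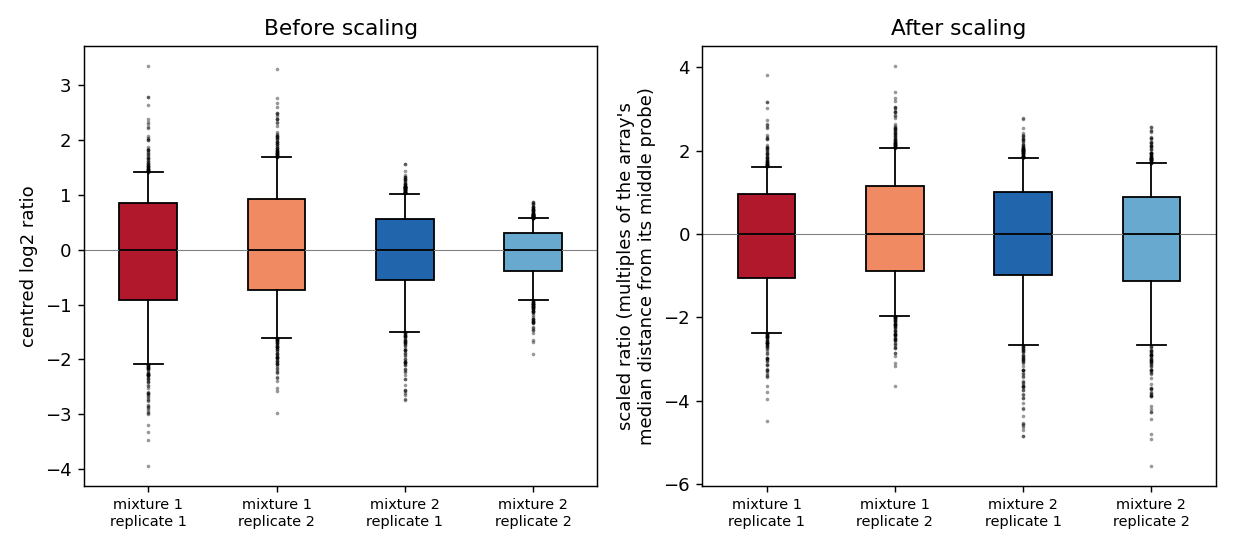
Ratios of 1152 probes on each of the 4 arrays, as centred log2 ratios (left) and as scaled ratios (right). Boxes span the middle 50% of probes with the median as a line, whiskers run from the 5th to the 95th percentile and points are the probes outside them. After scaling the boxes have like heights, while the lower tail stays longer in mixture 2, down to -5.56 scaled units, and the upper tail longer in mixture 1, up to 4.03.

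No gene passed the test between the mixtures. In limma with Benjamini-Hochberg adjustment over all 1152 probes, 0 probes (0%) had an adjusted p under 0.05, and the smallest was 0.0575. An adjusted p under 0.10 was reached by 37 probes (3.21%), 32 positive (2.78%) and 5 negative (0.434%). This split turned on the scaling: it was 36 and 27 when arrays were centred but not scaled, 29 and 5 with division by the SD, 126 and 0 without centring, and 0 and 0 after quantile normalization, with runs of 96 neighbouring probes centred or once a trend along the duplicate difference was taken out. Of the 350 named probes 17 (4.86%) did so, 15 positive and 2 negative. Before adjustment, 213 probes (18.5%) had a p under 0.05, 142 positive (12.3%) and 71 negative (6.16%), as did 73 named probes (20.9%). No other tool was run. Genes are therefore given by size, with their values on each array, and none is called changed. An exact permutation test of 2 arrays against 2 has 6 splits and cannot give a two-sided p below 0.333.

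In 93 of the 350 named probes (26.6%) both mixture 1 arrays lay above both mixture 2 arrays, and in 82 (23.4%) both lay below. Over all 1152 probes these shares were 23.4% and 23.7%, or 47.1% together, so the named probes were near the background. With all 8 spots compared instead, 44 and 36 named probes did not overlap, beside 9.9% and 10.2% of all probes, which is 20.1% together. Without centring, 644 probes lay above and 28 below, so every direction given here is relative to the array's middle probe. The median difference of all probes was 0.04 scaled units with centring and 1.00 without it. The positive share of probes with an unadjusted p under 0.05 was 66.7%, against 50.2% when arrays were centred but not scaled, 55.5% after quantile normalization and 98.6% without centring. The middle 50% of the named probes had a difference between -0.63 and 0.92 scaled units, and the median standard error was 0.683.

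The widest positive differences were those of RBBP4, KISS1, TEAD2 and PRKCH. RBBP4, a histone-binding subunit of deacetylase and chromatin assembly complexes, had scaled ratios of 1.40 and 1.67 in mixture 1 and of -4.84 and -1.67 in mixture 2. The difference was 4.79 (SE 0.964, 2 arrays against 2, limma adjusted p 0.0673), or 2.95 on the unscaled log2 scale. Its mixture 1 arrays were close together, while the mixture 2 arrays lay far apart below the middle. Without replicate 1 of mixture 2 the scaled difference of RBBP4 was 3.21.

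KISS1, which encodes the kisspeptin peptides, lay at 1.25 and 1.73 in mixture 1 and at -3.94 and -2.18 in mixture 2. Its difference was 4.55 (SE 0.750, limma adjusted p 0.0575). TEAD2, a transcription factor through which the Hippo pathway acts, lay at 1.92 and 1.83 against -4.06 and -1.21, a difference of 4.51 (SE 0.906). In both genes the arrays of a mixture shared a side of the middle, and the sides were opposite. PRKCH, a protein kinase C, lay at 1.00 and 2.54 against -2.64 and -2.47, and here the mixture 2 arrays were the closer pair. The difference of PRKCH was 4.33 (SE 0.716). That of TEAD2 was 3.08 without replicate 1 of mixture 2.

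HYAL3, a member of the hyaluronidases, had values of 3.01 and 1.54 in mixture 1 and of -2.32 and -1.34 in mixture 2. GTF3C1, the large DNA-binding subunit of the RNA polymerase III factor TFIIIC, lay at 0.90 and 1.98 against -2.93 and -2.19. The neurotrophin receptor NTRK3 had 0.99 and 2.08 against -1.50 and -3.26. These 3 genes also lay on opposite sides in the mixtures, and their differences were 4.10, 3.999 and 3.91. ZNF135, a zinc finger protein, lay at 2.09 and 1.99 against -2.70 and -0.997, with a difference of 3.89 (SE 0.734).

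In the remaining 4 of the 12 the distance lay mostly in mixture 2. NFRKB, a subunit of the INO80 chromatin remodeller, was below the middle on all 4 arrays, at -0.28 and -1.45 in mixture 1 and -4.19 and -5.56 in mixture 2. The endothelial cadherin gene CDH5 lay at -0.22 and 0.82 against -3.17 and -3.87. The p38 kinase gene MAPK13 lay at 0.57 and 0.27 against -1.84 and -4.12, and the forkhead factor gene FOXD1 at 1.34 and -0.11 against -4.85 and -2.17. NFRKB, CDH5 and MAPK13 were near the middle probe, or less far below it, in mixture 1. They were among the 12 largest after scaling and not before it, where HSPA9, HSP90AA1 and PRDM2 took their places. Their unscaled log2 differences were 1.42, 1.79 and 1.58. Without replicate 2 of mixture 2 the scaled difference of MAPK13 was 2.26, against 3.40 with it. That of FOXD1 was 2.79 without replicate 1 of mixture 2, against 4.12 with it.

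In limma the adjusted p-values for the 12 positive genes were 0.0575 to 0.0871. All 8 spots of a gene separated the mixtures in 11 of the 12, MAPK13 being the exception, beside 9.9% of all probes on the positive side. The 12 were chosen for separate arrays and wide differences on these same spots, so nothing is read from this share. Duplicate spots agreed poorly for many of them: 9 of the 12 were among the 288 probes with the largest duplicate difference, at least 0.630 (log2), and the part of this in the result was not tested. TEAD2 had a duplicate difference of 0.286 and RBBP4 one of 0.505.

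**Figure D2:**
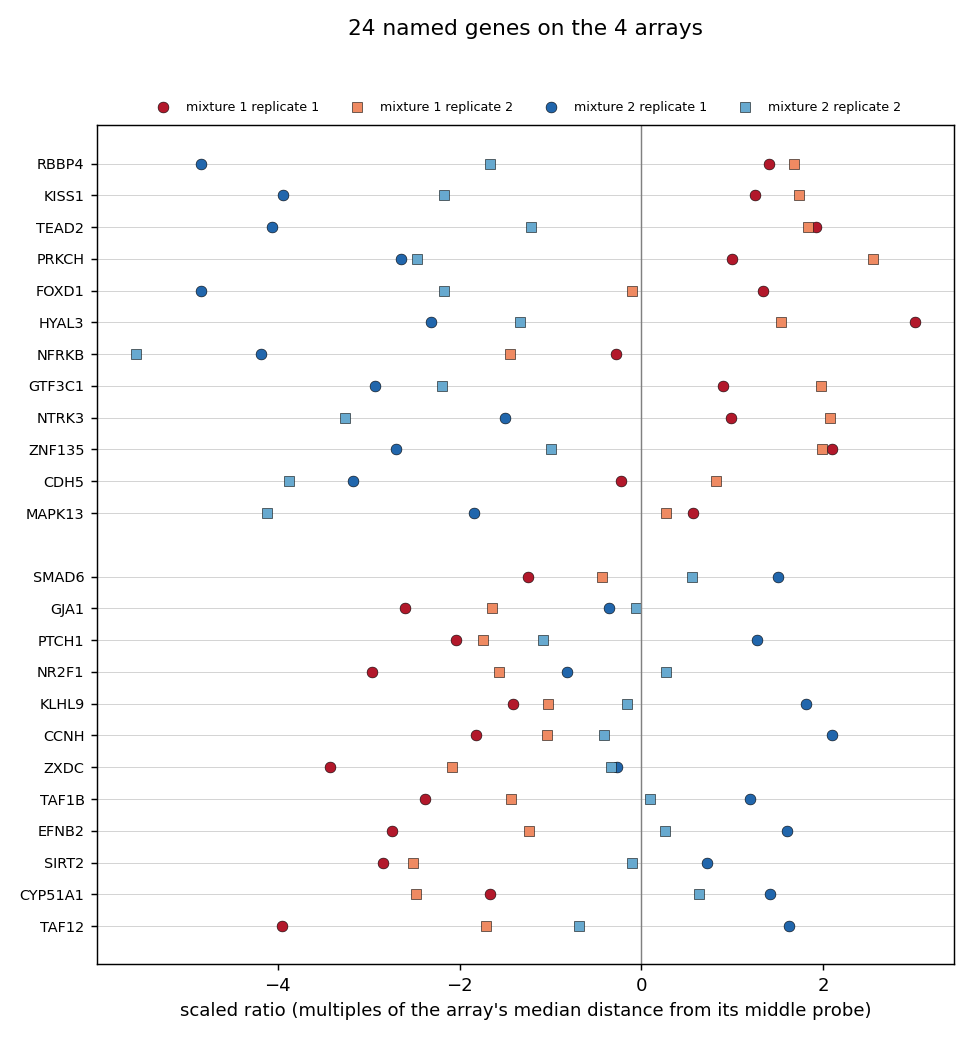
Scaled ratios of the 24 named genes on the 4 arrays, with circles for replicate 1 and squares for replicate 2, red shades for mixture 1 and blue shades for mixture 2. The upper 12 genes have both mixture 1 arrays to the right of both mixture 2 arrays and the lower 12 have them to the left, with the largest differences for RBBP4 (4.79) and TAF12 (-3.30).

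On the scaled ratios the negative differences were smaller. Without scaling the sizes were closer: the log2 differences of TAF12, SIRT2 and CYP51A1 were -2.77, -2.46 and -2.25, beside 2.95 for RBBP4 and 2.94 for TEAD2. TAF12, which belongs to the promoter-recognition complex TFIID, lay at -3.95 and -1.72 in mixture 1 and at 1.63 and -0.68 in mixture 2. The difference was -3.30 (SE 0.969, limma adjusted p 0.126), and the arrays lay far apart within both mixtures. Leaving out replicate 1 of mixture 1 gave -2.19, and leaving out that of mixture 2 gave -2.15. CYP51A1, the lanosterol demethylase of cholesterol synthesis, lay at -1.66 and -2.48 against 1.42 and 0.63. Its difference was -3.10 (SE 0.672, limma adjusted p 0.0828), its duplicate difference was 0.215, and it lay on opposite sides in the mixtures.

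SIRT2, an NAD-dependent deacetylase, lay at -2.84 and -2.51 in mixture 1 and close to the middle in mixture 2, at 0.73 and -0.10. The difference was -2.99 (SE 0.651, limma adjusted p 0.0828). The ephrin gene EFNB2, a ligand of Eph receptors, lay at -2.74 and -1.23 against 1.60 and 0.25, a difference of -2.92. TAF1B, of the RNA polymerase I initiation factor, had -2.38 and -1.43 against 1.19 and 0.09, and ZXDC, a zinc finger regulator, -3.42 and -2.08 against -0.27 and -0.34. ZXDC therefore lay below the middle everywhere and only its distance differed.

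Of the other 6, CCNH, the cyclin partner of CDK7, lay at -1.82 and -1.04 against 2.10 and -0.41. KLHL9, an adaptor of a cullin ligase, lay at -1.42 and -1.03 against 1.81 and -0.16. The Hedgehog receptor gene PTCH1 lay at -2.04 and -1.74 against 1.27 and -1.08. In CCNH, KLHL9 and PTCH1 replicate 1 of mixture 2 was the array that stood off. Without it their differences were -1.02, -1.06 and -0.81, against -2.28, -2.05 and -1.99 with it. The nuclear receptor gene NR2F1 differed by -1.99 (-1.29 without replicate 1 of mixture 1), and SMAD6, an inhibitor of BMP signalling, by -1.87. GJA1, the gap junction protein connexin 43, differed by -1.91 on 1 probe (-2.60 and -1.64 against -0.36 and -0.06) and by -1.33 on its other probe (-1.75 and -0.68 against 0.48 and -0.26, and -0.80 without replicate 1 of mixture 1). The limma adjusted p-values of the 12 negative genes were 0.0828 to 0.240. All 8 spots separated the mixtures in 10 of them, beside 10.2% of all probes on the negative side, a share that the choice of the genes favours. Of the 12, 3 were among the 288 probes with the poorest duplicates. KLHL9 and SMAD6 were among the 12 after scaling and not before it, where SLC26A2 and CTSO took their places.

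All 24 genes kept their direction under each of the 17 alternatives that gave them a value. Under many of these the direction could not turn. The 24 were chosen for separate arrays, so leaving out 1 array keeps the sign. Robust eBayes, the replicate block, array weights, closer duplicates and spots kept apart leave the estimate unchanged. Only the other scalings and centrings, the removal of the duplicate trend and the single spots could have turned it. Whether a probe passed was not read from fits without 1 array. Such a fit takes its spread from the mixture that keeps 2 arrays, with the lone array of the other mixture assumed to vary like them.

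Gene lists for 13 pathways were then read member by member. In every list 0 members passed in limma (unadjusted p under 0.05 in 73 of the 350 named probes). The counts below are of members whose arrays did not overlap, positive and negative, beside 23.4% and 23.7% of all probes. All list medians shift with centring: without it each of the 13 medians was positive, also those that were negative with it. The median of all probes was 0.04 scaled units.

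The transcription list holds initiation and elongation factors of the RNA polymerases, mostly of polymerases I and II, with GTF3C1 of polymerase III among them. Of its 10 measured members 2 were positive and 4 negative, with a median difference of -0.70. The negative ones were TAF12, TAF1B, CCNH and TAF7, and the positive ones were GTF3C1 and ELOC. ELOC, elongin C, lay at 2.62 and 3.03 in mixture 1 and at -0.28 and 1.81 in mixture 2. Its difference was 2.06 (SE 0.792, limma adjusted p 0.207), and leaving out replicate 1 or 2 of mixture 2 gave 1.01 and 3.11.

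Chromatin genes lay at both ends. Of 12 members 5 were positive and 3 negative, with a median of -0.05, which turned positive (0.44) when the trend on the duplicate difference was removed. Besides RBBP4 and NFRKB, the histone methyltransferase gene PRDM2 lay at 2.04 and 3.06 against -0.59 and 0.88, a difference of 2.40. SIRT2 was the lowest. The list thus spanned from -2.99 to 4.79, nearly the whole range of the named probes, which ran from -3.30 to 4.79.

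The DNA repair list had 3 positive and 3 negative among 10 members and a median of 0.01, which was negative after quantile normalization (-0.12) and with the duplicate trend removed (-0.34). RAD50, of the complex that binds broken DNA ends, lay at 0.11 and -1.16 in mixture 1 and at -1.91 and -2.91 in mixture 2. Its difference was 1.88 (1.24 without replicate 1 of mixture 1). Without the scaling it was 0.61 (log2), and replicate 2 of mixture 1 (-0.95) lay close to both mixture 2 arrays (-1.07 and -0.99). RPA1, which coats single-stranded DNA, differed by 1.79 and the telomerase gene TERT by 1.45 (0.91 without replicate 2 of mixture 2). BRCA1, of homologous recombination, went the other way, at -0.46 and -1.02 against 1.23 and 0.87, a difference of -1.79 (SE 0.637, limma adjusted p 0.179). LIG4, the ligase of end joining, lay within a narrow band on all arrays (1.41, 1.38, 1.73 and 1.60), though its arrays counted as separate. Its difference was -0.26 with a 95% interval from -1.66 to 1.13, which leaves room for a difference of over 1 scaled unit either way, and without the scaling it was 0.42 (log2).

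In the cell cycle list 1 of 12 members was positive and 3 were negative, and the median was -0.68. CDC45, of the replicative helicase, was the positive one, at 0.64 and -0.76 against -1.24 and -3.59. Its difference was 2.36, and 1.18 without replicate 2 of mixture 2. E2F3, a transcription factor of S phase entry, lay at -1.33 and -0.97 against 0.85 and 0.30, with a difference of -1.73, and CCNH and CDK6 were the other negative ones. All 5 apoptosis genes had separate arrays, 2 positive and 3 negative, with a median of -0.61. The initiator caspase gene CASP9 differed by 1.36. The BCL2 family members BID and BAD, which promote cell death, differed by -1.83 and -1.65. BID was at -0.93 without replicate 1 of mixture 2 and BAD at -0.88 without replicate 2 of mixture 1.

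Ubiquitin genes had 3 positive and 1 negative of 6 probes and a median of 1.06. UBE2R2, a conjugating enzyme of cullin ligases, was positive on both of its probes, by 2.32 and 1.81, which gives 2 probes of 1 gene and not 2 genes. CAND2, which binds cullins, lay at -1.40 and -1.76 in mixture 1 and at the middle in mixture 2, 0.05 and -0.07. Of the 3 chaperone genes the mitochondrial HSPA9 lay at 3.17 and 0.79 against -0.56 and -2.001, a difference of 3.26 (SE 0.894, limma adjusted p 0.116), which was 2.07 without replicate 1 of mixture 1. HSP90AA1, the stress-inducible cytosolic HSP90, lay at 2.53 and 3.27 against -0.48 and 2.47. Its scaled difference of 1.91 rested on replicate 1 of mixture 2 and was 0.43 without it. Before scaling the centred log2 ratios of HSP90AA1 were 2.22 and 2.68 in mixture 1 and -0.27 and 0.84 in mixture 2. On that scale both mixture 1 arrays lay well above both mixture 2 arrays, and the difference was 2.16. The cochaperone gene DNAJB1 was alike on all arrays after scaling (1.75, 2.02, 1.46 and 1.78), with an interval of the difference from -1.14 to 1.68. Before scaling its centred log2 ratios were 1.53 and 1.65 in mixture 1 and 0.82 and 0.61 in mixture 2.

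**Figure D3:**
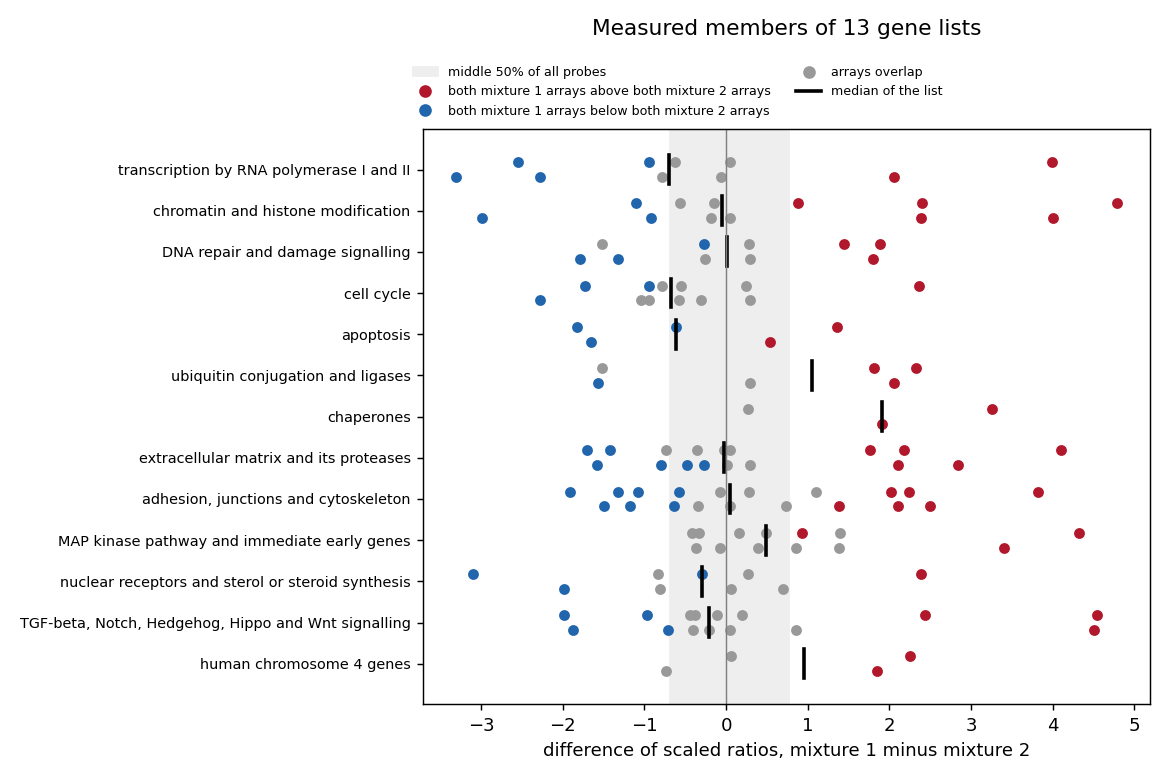
Difference of scaled ratios (mixture 1 minus mixture 2) for each measured member of the 13 gene lists. Points are probes, red or blue where both arrays of mixture 1 lay above or below both of mixture 2 and grey where arrays overlapped, bars are list medians and the shaded band holds the middle 50% of all 1152 probes, from -0.69 to 0.77. The list medians run from -0.70 (transcription) to 1.91 (chaperones, 3 genes), and most lists have points on both sides.

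Matrix genes and their proteases had 5 positive and 6 negative of 17 members, with a median of -0.02 that was positive without scaling (0.55, log2). Besides HYAL3, the cathepsin gene CTSF lay at 2.37 and -0.17 against -2.47 and -1.01, a difference of 2.84 that was 1.57 without replicate 1 of mixture 1. The collagenase gene MMP13 differed by 2.10. CTSZ, another cathepsin, had the lowest difference, -1.71, with -3.40 and -0.89 in mixture 1 and -0.21 and -0.66 in mixture 2. That value rested on replicate 1 of mixture 1 and was -0.45 without it. The basement membrane gene NID1 lay at 1.65, 1.58, 1.53 and 1.74. Its difference was -0.02 (95% interval from -1.42 to 1.38), while in unscaled log2 it was 0.64, because the arrays of mixture 1 are wider.

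Adhesion and cytoskeleton genes had 6 positive and 7 negative of 19 probes and a median of 0.05, which was -0.03 after quantile normalization. Besides CDH5, the cadherin gene CDH6 lay at 0.43 and 1.10 against -1.61 and -1.86, a difference of 2.50 (SE 0.640, limma adjusted p 0.102). LIMK1, the kinase that inactivates cofilin, lay at 2.00 and 1.92 against 0.15 and -0.44. At the other end, next to GJA1, the membrane skeleton gene ADD3 differed by -1.49. The MAP kinase list had 3 positive and 0 negative of 13 members and a median of 0.50, with PRKCH and MAPK13 highest and 10 members overlapping.

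Nuclear receptor and sterol genes had 1 positive and 3 negative of 9 probes and a median of -0.30, which was positive (0.24, log2) without scaling. The 2 probes of ESR1, the oestrogen receptor, disagreed: 1 differed by 2.39 (0.77 and 0.71 against -2.18 and -1.12) and the other by -0.83 (-0.71 and -0.75 against 1.995 and -1.79). No direction is therefore given for ESR1. The list of TGF-beta, Notch, Hedgehog, Hippo and Wnt signalling, which also holds KISS1 though kisspeptin acts through a G protein-coupled receptor outside these pathways, had 3 positive and 4 negative of 15 members and a median of -0.21, which was 0.08 (log2) without scaling. The highest member within these pathways was TEAD2, followed by MFNG, a glycosyltransferase that modifies Notch, which differed by 2.44. PTCH1 and SMAD6 were lowest. Of 4 genes that lie on human chromosome 4, 2 were positive: HPGD, which inactivates prostaglandins, by 2.25, and the cytokine gene IL15 by 1.85. The arrays of TACC3 (difference 0.06) and KIT (-0.73) overlapped. IL15 was at 3.001 and 0.70 without replicate 1 or 2 of mixture 2, and at 0.12 on its first spots and 3.84 on its second, so its size is not settled. The probes may read hamster RNA, human RNA from the added chromosome or both, which was not tested.

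The size of the difference moved with the agreement of duplicate spots. Probes were put in 4 classes of 288 by the mean difference between their 2 spots over the 4 arrays. The median size of the difference between mixtures, leaving out its sign, was 0.378 scaled units in the class with the closest spots and 1.19 in the class with the widest. Of the 37 probes with a limma adjusted p under 0.10, 24 were in the widest class, 23 of them positive, and 0 in the closest. In the widest class mixture 2 had a median scaled ratio of -1.23 and mixture 1 one of -0.36. In the closest class both were positive, at 1.14 and 1.19. Brightness was not used here, and the part of duplicate agreement in the differences was not tested. Over the 576 probes with the closer spots 0 passed in limma (71 at an unadjusted p under 0.05), and 7 of the 24 genes were kept, TEAD2, CYP51A1, EFNB2, TAF1B, CCNH, KLHL9 and SMAD6.

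**Figure D4:**
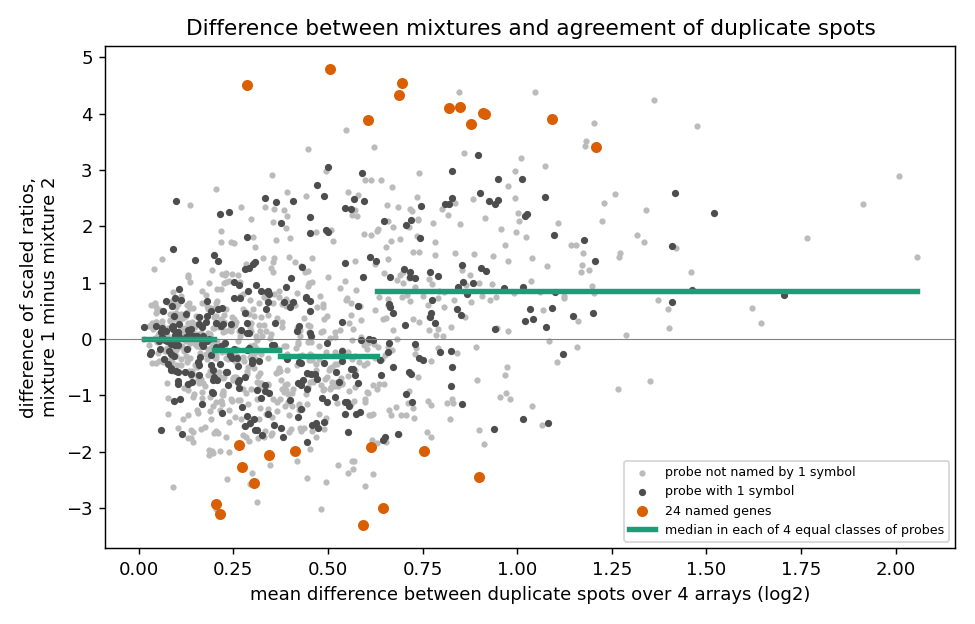
Difference of scaled ratios between the mixtures against the mean difference between a probe's duplicate spots (log2, 4 arrays) for all 1152 probes. The 24 named genes are in orange and green lines give the median of each class of 288 probes, which is 0.85 in the class with the widest duplicates and -0.01 to -0.30 in the others.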

How the data were processed

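Total RNA was measured on 4 two-channel arrays, 2 for each mixture, grouped and numbered by their titles. Deposited were log2 ratios of an array's channels, 1 for each of 2304 spots, and 2 raised to their size was a whole number of hundredths in 100% of spots (within 0.1 of a hundredth). Per the labels, a normalization factor of 1.169 belonged to replicate 1 of mixture 2 and one of 3.8 to replicate 2 of mixture 1. The sources used here do not name the dyes, the scanner, the background correction or a spot filter, and no spot brightness was used, so depth is unknown and the number of arrays limits the precision.

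Adjacent spots were averaged to 1152 probes. Of these, 350 had 1 symbol in GEO's platform annotation, 8 had several and 794 are unnamed here. Each array was centred on its median probe and divided by its median absolute value. The difference between mixtures was fitted with limma 3.58.1 in R 4.3.3 (lmFit, eBayes, 2 residual and 7.26 prior degrees of freedom), with Benjamini-Hochberg adjustment over all probes and a threshold of 0.05. The script was tested on simulated data. Replicates with the same number did not deviate together (r = -0.03 over 1152 probes), so the numbers were not taken to pair the arrays.

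Named genes are the 12 largest positive and 12 largest negative differences among probes with 1 symbol whose arrays did not overlap, and examples from 13 gene lists. The members, lists and rule were chosen with earlier results of these data known. List genes beyond the largest and smallest were chosen after their values were seen. The alternatives were other scalings, single spots, spots kept apart, closer duplicates, a trend on the duplicate difference (lowess span 0.4), robust eBayes, the replicate block and leaving out each array. Centring runs of 96 neighbouring probes and array weights were added after seeing the data. No sequence was used here.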

Additional observations from a re-analysis of the deposited data

Results flagged for a closer look

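In 13 of the 24 named genes both arrays of mixture 1 lay on 1 side of the array's middle probe and both arrays of mixture 2 on the other. The same held for 133 of all 1152 probes (11.5%) and 46 of the 350 named probes (13.1%). The 24 were chosen for wide differences and separate arrays, which favours opposite sides, so nothing is read from their larger share. The scaled difference was positive for RBBP4 (4.79), KISS1 (4.55), TEAD2 (4.51), PRKCH (4.33), HYAL3 (4.10), GTF3C1 (3.999), NTRK3 (3.91), ZNF135 (3.89) and MAPK13 (3.40). It was negative for CYP51A1 (-3.10), EFNB2 (-2.92), TAF1B (-2.54) and SMAD6 (-1.87). The test of the difference itself, in limma with Benjamini-Hochberg adjustment, passed for none of them (adjusted p 0.0575 to 0.186). The opposition of the sides was not tested, and it is relative to each array's middle probe.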

How the results depend on the processing

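The count of 0 passing probes (limma, Benjamini-Hochberg; 213 at an unadjusted p under 0.05) was also 0 without scaling the arrays, with division by the SD, after quantile normalization, without centring, on the first or second spots, with spots kept apart, over closer duplicates, with the duplicate trend removed, with robust eBayes and with runs of 96 probes centred (71 to 285 probes at an unadjusted p under 0.05). With the replicate block 79 of 1152 probes passed (64 positive, 15 negative), including 38 of the 350 named probes. Of the 24 named genes 18 passed. They were chosen for wide differences on these same arrays, so nothing is read from their share. The replicate numbers do not pair the arrays by any label, and the fit with the block leaves 1 residual degree of freedom. Its limma adjusted p was 1.14e-05 for RBBP4 (difference 4.79), 0.000114 for HYAL3 (4.10) and 0.0546 for PRDM2 (2.40), in the order of size. The 79 are therefore not read as changed genes. With array weights 11 passed. Leaving out each array in turn gave 0 to 149 passing probes. Arrays did not overlap in 417 probes on the positive side without scaling, 644 without centring and 78 of 576 over closer duplicates, against 270, and on the negative side in 28 without centring and 145 of 576 over closer duplicates, against 273. The cause was not tested for any of these settings. Closer duplicates cover 576 probes in place of 1152, and there the positive count was lower than the negative one. Arrays not overlapping were not counted with an array left out. Of the 55 probes followed singly, the sign turned in 3. NID1 had 0.64 without scaling, 0.078 with division by the SD, 0.94 without centring and -0.13 to 0.084 with 1 array left out. LIG4 had 0.42 without scaling and 0.70 without centring. The lower ESR1 probe had 0.14 without centring, 0.46 on first spots and -2.72 to 1.07 with 1 array left out (1.07 without replicate 1 of mixture 2).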
